A study of Mus musculus with 12 samples.

Results

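The genes described here encode 10 subunits of eukaryotic initiation factor 3 (eIF3), namely Eif3a, Eif3b, Eif3c, Eif3d, Eif3e, Eif3f, Eif3g, Eif3h, Eif3l and Eif3m. They were chosen by name, with earlier results of these data known. Each of them was found in the table of 20504 entries that holds reads on coding sequence (CDS) for 12 libraries. The question for these genes was which subunits lost translation in the mouse brain when mTOR was inhibited with AZD-8055, and which did not.

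Brain tissue of 6 adult Camk2a-RiboTag mice, 3 months old, gave the libraries. In this line Cre recombinase, driven by the Camk2a promoter, switches on a hemagglutinin-tagged copy of the ribosomal protein Rpl22 in principal excitatory neurons of the forebrain, and every group below carries these alleles. Mice A and B were the controls of the drug experiment. They are labelled untreated, and the study's methods describe a gavage of the Captisol vehicle. Mice C and D received a single oral dose of AZD-8055, 100 mg/kg, an ATP-competitive inhibitor of the kinase mTOR, and the right frontal lobe was taken 1 h after vehicle or drug. Each of these 4 mice gave a poly(A) RNA-Seq library and a ribosome profiling library of the whole tissue, in which the mRNA fragments protected by ribosomes (footprints) are sequenced. Mice E and F, which were untreated, each gave an RNA-Seq library of the homogenate (input) and of polysomes pulled down through the tag (IP).

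eIF3 is the largest of the initiation factors. It binds the small ribosomal subunit, helps to recruit the initiator tRNA complex and the mRNA, and bridges the ribosome to the cap-binding complex eIF4F. The PCI and MPN domain subunits form its core (Eif3a, Eif3c, Eif3e, Eif3f, Eif3h, Eif3k, Eif3l and Eif3m), Eif3b, Eif3g and Eif3i form a module at the edge, and Eif3d and Eif3j are attached to these. The human mRNAs of the subunits e, f and h are known as TOP mRNAs. Such mRNAs begin with a cytidine and a stretch of pyrimidines, and their translation depends strongly on mTOR. Most TOP mRNAs encode ribosomal proteins and elongation factors.

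On CDS the 4 RNA-Seq libraries of mice A to D held between 9395385 and 10649939 counts, and the footprint libraries held 9259938 (A), 4551357 (B), 3503873 (C) and 4759336 (D). The inputs held 12580397 and 15585831 counts and the IPs 9309496 and 9975629. Each subunit had at least 175 counts in every library, the lowest being Eif3f footprints in mouse C. Replicate libraries varied beyond counting error (chi-square per degree of freedom of 2.74 to 9.88). All 10 subunits passed the filter on low values, an average of 37 counts or more over the libraries tested, in every test below. With 2 mice per group, p-values rest on the spread among the libraries of these mice only. The main TE and IP tests had no mouse term, so libraries of the same mouse were treated as independent. Counts come from homogenized tissue, where fewer cells of a type and less RNA per cell cannot be told apart.

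Of the 10 subunits, 4 were called lower in translation efficiency (TE) with AZD-8055, namely Eif3f, Eif3e, Eif3h and Eif3m. The other 6 did not pass the test. Only the call of Eif3f held under all 11 alternative settings described below. TE is the footprint count of a gene relative to its RNA-Seq count, and its change was tested as the interaction of library type and treatment over all 8 libraries with edgeR's quasi-likelihood test and Benjamini-Hochberg adjustment at 0.05. Across the 11797 genes tested, 0.788% were called lower in TE, against 4 of the 10 subunits. The 10 genes were chosen with earlier results of these data known, so the contrast is a description. The 2 other measured subunits, Eif3i and Eif3k, were not called. A fall of over 2-fold was called in 0.297% of genes and in 1 subunit, Eif3f. The median log2 TE change of the 10 subunits was −0.26, and that of all genes was −0.011. Scaling between libraries sets the typical gene near 0, so changes in TE and footprints are relative to it. A fall shared by most genes would not show in these values. The 4 subunits called lower are among the 7 core members described here. The other 3 of these (Eif3a, Eif3c and Eif3l) and the 3 outside the core (Eif3b, Eif3g and Eif3d) were not called. Whether the changes differ between subunits, or between the core and the rest, was not tested.

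**Figure D1:**
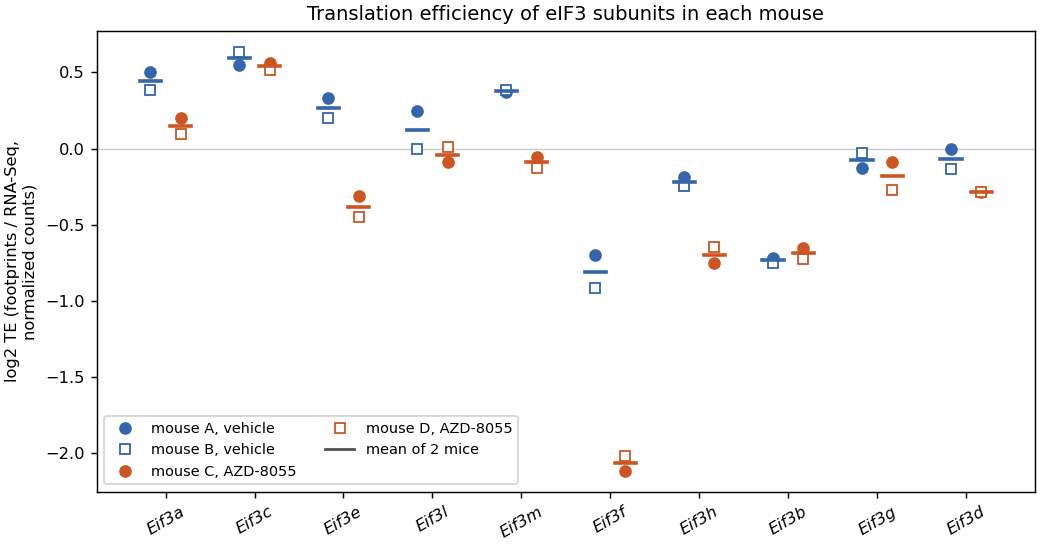
The log2 TE of each subunit (vertical axis, footprints relative to RNA-Seq after normalization) is drawn for each mouse, with vehicle mice in blue, AZD-8055 mice in orange and the mean of each pair as a short line. Eif3f dropped from between −0.92 and −0.70 to between −2.12 and −2.02, while the points of both groups overlap for Eif3b, Eif3c, Eif3g and Eif3l.

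Eif3f, one of the core subunits with an MPN domain, had the largest fall among the subunits. Its normalized footprint counts, divided by size factors that put the 8 libraries on a common scale, were 942 (A) and 835 (B) with vehicle and 374 (C) and 378 (D) with AZD-8055. Its normalized RNA-Seq counts were 1532 and 1577 with vehicle and 1621 and 1531 with AZD-8055, so the footprints of the groups stood far apart while the RNA levels overlapped. The log2 TE was accordingly −0.70 and −0.92 in the vehicle mice and −2.12 and −2.02 in the treated mice. The fitted log2 TE change was −1.26 ± 0.11 (SE; edgeR adjusted p = 1.78e-05), which leaves 41.8% of the vehicle TE, and its estimate was the 18th lowest of 11797 genes.

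Eif3h, the other core subunit with an MPN domain, fell less. Its normalized footprints were 1138 and 1036 with vehicle and 761 and 778 with AZD-8055, against RNA-Seq counts of 1298 and 1228, and of 1281 and 1215. The treated mice were lower than both controls in footprints and not in RNA. The log2 TE change was −0.48 ± 0.10 (SE; edgeR adjusted p = 0.0351).

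Eif3e, a PCI subunit that contacts eIF4G, had 1165 and 924 normalized footprints with vehicle and 799 and 671 with AZD-8055. Its RNA-Seq counts were 925 and 802 with vehicle and 994 and 918 with AZD-8055. The footprints separated the groups although the vehicle mice differed from each other, and the RNA levels overlapped. The log2 TE change was −0.67 ± 0.14 (SE; edgeR adjusted p = 0.0333), or 62.9% of the vehicle TE.

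Eif3m, also a PCI subunit, had 1115 and 1046 normalized footprints with vehicle and 763 and 715 with AZD-8055. Its RNA-Seq counts were 860 and 802 with vehicle and 791 and 781 with AZD-8055, both treated mice lying slightly under the controls. The log2 TE change was −0.47 ± 0.10 (SE; edgeR adjusted p = 0.0412), or 72.3% of the vehicle TE.

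The calls for these genes did not rest on equal ground. Eif3f was called under all 11 alternative settings of the TE test, at −1.33 to −1.17, Eif3e under 7, Eif3h under 4 and Eif3m under 3. With all mice kept, Eif3h and Eif3m missed the threshold with DESeq2 (adjusted p = 0.0614 and 0.137), with DESeq2 size factors in edgeR (0.0547 and 0.0689) and with total counts (0.0501 and 0.0557). The calls of Eif3e, Eif3h and Eif3m were each lost when any 1 of the 4 mice was left out, although the estimates stayed between −0.71 and −0.61 for Eif3e, −0.55 and −0.40 for Eif3h, and −0.50 and −0.44 for Eif3m. Their adjusted p-values from edgeR then ranged from 0.102 to 0.278 for Eif3e, 0.0773 to 0.436 for Eif3h and 0.200 to 0.553 for Eif3m.

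Among the other core subunits, Eif3a and Eif3c, which form the scaffold of the complex, gave unlike values. Eif3a had log2 TEs of 0.50 and 0.39 in the vehicle mice and 0.20 and 0.096 in the treated mice, so its groups did not overlap. Its log2 TE change of −0.30 ± 0.10 (SE) did not pass the adjustment (edgeR adjusted p = 0.455), and its 95% interval ran from −0.51 to −0.08. Eif3c had log2 TEs of 0.55 and 0.63 with vehicle and 0.56 and 0.52 with AZD-8055, which overlapped. Its change was −0.05, with an interval from −0.26 to 0.16. Eif3l, another PCI subunit, had log2 TEs of 0.24 and −0.0030 with vehicle and −0.090 and 0.0080 with AZD-8055, where the spread between the vehicle mice exceeded the gap between the groups. Its change was −0.18, with an interval from −0.44 to 0.09.

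The subunits outside the core had estimates between −0.22 and 0.04, a range that also holds those of Eif3l and Eif3c. Eif3d, which can itself bind the mRNA cap, had log2 TEs of −0.0045 and −0.14 with vehicle and −0.28 and −0.29 with AZD-8055. Its groups did not overlap, and its change was −0.22 (95% interval −0.45 to 0.02). Eif3g, a subunit with an RNA recognition motif, had −0.13 and −0.030 with vehicle and −0.089 and −0.27 with AZD-8055, and a change of −0.10 (95% interval −0.33 to 0.13). Eif3b, on which Eif3g and Eif3i are mounted, had −0.72 and −0.75 with vehicle and −0.65 and −0.72 with AZD-8055, and a change of 0.04 (95% interval −0.19 to 0.28). The intervals of Eif3b, Eif3c, Eif3d, Eif3g and Eif3l did not reach the estimates of Eif3h or Eif3m, and that of Eif3a did. The 95% intervals of Eif3h (−0.70 to −0.26) and Eif3m (−0.69 to −0.25) overlapped those of Eif3a, Eif3d, Eif3g and Eif3l, however. That of Eif3m also overlapped that of Eif3c. Differences between subunits were not tested.

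Across the 10 subunits, both treated mice had a lower TE than both vehicle mice in 6 (Eif3a, Eif3d, Eif3e, Eif3f, Eif3h and Eif3m) and a higher TE than both in 0. Such a separation downward was seen in 20.9% of the 11769 genes with a TE in all 4 mice. The 10 genes together summed to 1810 and 1735 CPM (counts relative to the library's CDS total) of footprints in the vehicle mice and 1467 and 1469 CPM in the treated mice. In RNA-Seq they summed to 1809 and 1738 CPM with vehicle and 1749 and 1730 CPM with AZD-8055, so the treated mice stood apart in footprints while in RNA mouse C lay between the controls and mouse D just under both.

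Taken alone, the footprint counts were called lower in 3 subunits, and the RNA-Seq counts of none were called changed. In the test of footprints over 4 libraries, edgeR called Eif3f at −1.24 ± 0.09 (SE; adjusted p = 8.70e-05), Eif3m at −0.55 ± 0.08 (adjusted p = 0.00391) and Eif3h at −0.50 ± 0.08 (adjusted p = 0.00924), against 0.982% of 10695 genes called lower. Eif3e had an estimate of −0.52 ± 0.10 and missed the threshold (edgeR adjusted p = 0.0512). The estimates of the other 6 lay between −0.29 (Eif3a) and −0.0080 (Eif3b), so all 10 were negative. That of Eif3b was near 0 and changed sign under some other settings, and the median of all genes was 0.00099. Eif3e was called with DESeq2 and also without mouse C or mouse D. Leaving out vehicle mouse A or mouse B left only Eif3f called. In RNA-Seq, edgeR called 0 of the 10 subunits and 0.148% of 12182 genes in either direction. The RNA estimates ran from −0.13 (Eif3g) to 0.12 (Eif3e), and 0 of the 10 had an unadjusted p under 0.05, the lowest being 0.0960. DESeq2 also called 0 of the 10. As with Eif3m, the normalized RNA-Seq counts of Eif3g were lower in both treated mice (716 and 728) than in both controls (801 and 752).

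**Figure D2:**
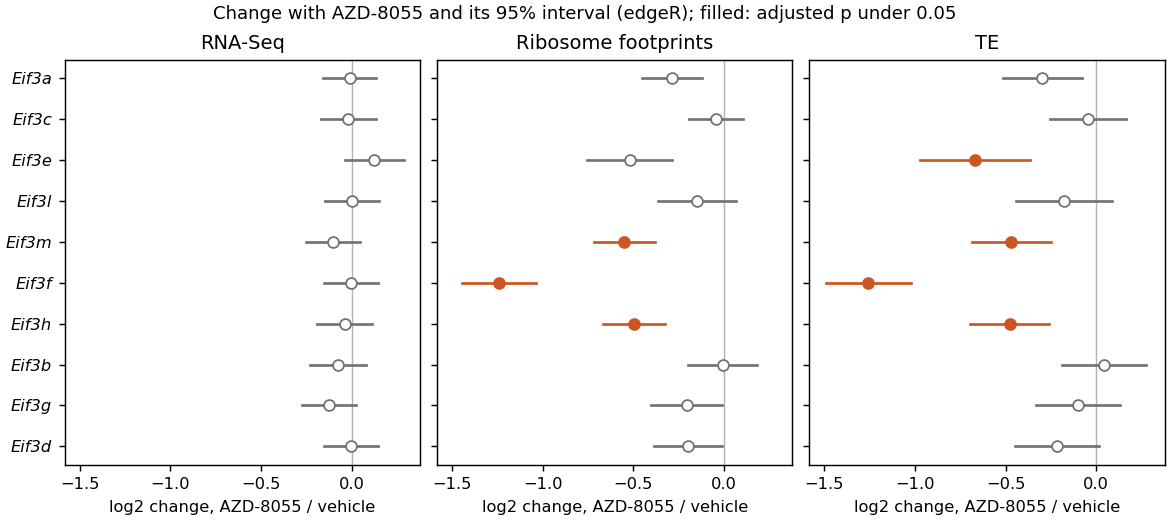
Each point is the log2 change of a subunit with AZD-8055 relative to vehicle in RNA-Seq (left), footprints (middle) and TE (right), with its 95% interval as a line, and filled orange points passed the adjusted threshold. RNA changes sit between −0.13 and 0.12, while the footprint and TE values of Eif3f lie near −1.2.

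Without the drug the subunits differed in TE, a ratio within a gene that does not depend on its length. In the vehicle mice the order of mean log2 TE was Eif3c (0.59 ± 0.06, SD, n = 2), Eif3a (0.44 ± 0.08), Eif3m (0.38 ± 0.01), Eif3e (0.27 ± 0.09), Eif3l (0.12 ± 0.17), Eif3d (−0.07 ± 0.09), Eif3g (−0.08 ± 0.07), Eif3h (−0.22 ± 0.04), Eif3b (−0.74 ± 0.03) and Eif3f (−0.81 ± 0.15). The values of both mice overlapped between the neighbours Eif3e and Eif3l, Eif3d and Eif3g, and Eif3b and Eif3f. Eif3c stood at the 75.4 percentile of 10882 genes and Eif3f at the 19.5 percentile. Eif3f and Eif3b thus had similar TEs with vehicle, whereas with AZD-8055 the log2 TE was −2.07 ± 0.07 for Eif3f and −0.69 ± 0.05 for Eif3b. The range over the 10 subunits widened from between −0.81 and 0.59 to between −2.07 and 0.54, and Eif3c was the highest and Eif3f the lowest in both groups.

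Because mTOR-dependent mRNAs are known by the pyrimidines at their start, the sequence around the RefSeq gene start was read for the 8 subunits listed in the promoter table (GRCm38.p6, the mouse build that is also called mm10, which the labels give for the counts). Eif3e and Eif3h are not in that table. Each window holds the 20 bases before the annotated start and the first 20 bases of exon 1, in sense direction, and the capitals mark the longest unbroken run of C and T that touches it, with the run's length counted also where it passes the window's edge. Shown are the called subunits Eif3f and Eif3m and, for contrast, Eif3l, Eif3c and Eif3b, which were not called.
Eif3f (chr7:108934395-108934434, plus strand): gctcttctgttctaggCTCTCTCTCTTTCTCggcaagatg
Eif3m (chr2:105017008-105017047, minus strand): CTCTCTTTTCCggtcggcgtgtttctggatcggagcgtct
Eif3l (chr15:79075203-79075242, plus strand): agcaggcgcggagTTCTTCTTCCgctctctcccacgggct
Eif3c (chr7:126566347-126566386, minus strand): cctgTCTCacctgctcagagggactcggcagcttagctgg
Eif3b (chr5:140419285-140419324, plus strand): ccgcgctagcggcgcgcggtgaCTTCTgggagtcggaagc

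The run of Eif3f was 15 bases long, from 4 bases before the annotated start to base 11 of the exon, and 2.58% of the 32851 windows in the table held a run at least as long. In Eif3m the run of 11 bases (7.81% of windows) ended 10 bases before the annotated start. Eif3l, whose TE change was not called, had a run of 10 bases across its start (10.6% of windows). The remaining runs were 6 bases in Eif3g (from 22 to 17 bases before its start, so partly outside the window), 5 in Eif3b, 4 in Eif3c and 3 in Eif3a and Eif3d, and the median over all windows was 5. As a background, a run of 10 or more was found in 26 (37.7%) of the 69 genes called lower in TE that have a window, counting the longest of a gene's windows, and in 1149 (13.1%) of 8786 other genes tested. Of all 93 genes called lower, 42 were large and 30 small subunit ribosomal protein genes, and Eif3f and Eif3m were also among the 93. The part of ribosomal protein genes in the 37.7% was not tested. The length of 10 was picked after the subunits' runs had been read. Only the sense strand was searched, the starts are those of the annotation and not of brain transcripts, and a run is a description of these letters.

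The other subunits and the rest of the initiation machinery give the setting for these values. Eif3k, a small core subunit, had a log2 TE change of −0.27 (95% interval −0.48 to −0.06, edgeR adjusted p = 0.511) and Eif3i, the WD40 partner of Eif3b, one of −0.20 (95% interval −0.47 to 0.07), and neither was called. Eif3j1 and Eif3j2 were listed at 0 in all 12 libraries. Only uniquely mapped reads were counted, and whether these closely related genes lost reads in that step was not tested. Of the 11 measured genes of eIF4F, its helicase partners and its 4E-BP inhibitors, 2 were called lower in TE, with Eif4a2 (an RNA helicase) at −0.86 and Eif4b (its cofactor) at −0.76, while the scaffold Eif4g1 had 0.0049. Of the 22 scanning, eIF2, eIF2B and joining factors 1 was called lower, Eif2a at −0.69, and Eif2s1 (the alpha subunit of eIF2) had −0.03. Of 8 elongation factors 4 were called lower, led by Eef1a1 at −1.59 and Eef2 at −1.17, and Eef1a2 and Eif5a were not called. Ribosomal protein genes were called lower in 42 of 46 for the large subunit and 30 of 31 for the small subunit, with median log2 TE changes of −0.89 and −0.96. Of 12 other known TOP mRNAs 5 were called lower, led by Pabpc1, the poly(A) binding protein, at −1.34, while Ipo5 had −0.22 and was not called. The 11 genes of mTOR, S6 kinases, MNK kinases, Paip1 and the eIF2 kinases gave 0 calls in either direction in edgeR. Eif3f thus lay inside the range of the ribosomal proteins (−1.36 to −0.35), Eif3e, Eif3h and Eif3m lay inside it above both medians, and the other 6 subunits lay above it. None of the listed markers of neurons, glia, vessels or blood that could be tested was called in TE, footprints or RNA.

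**Figure D3:**
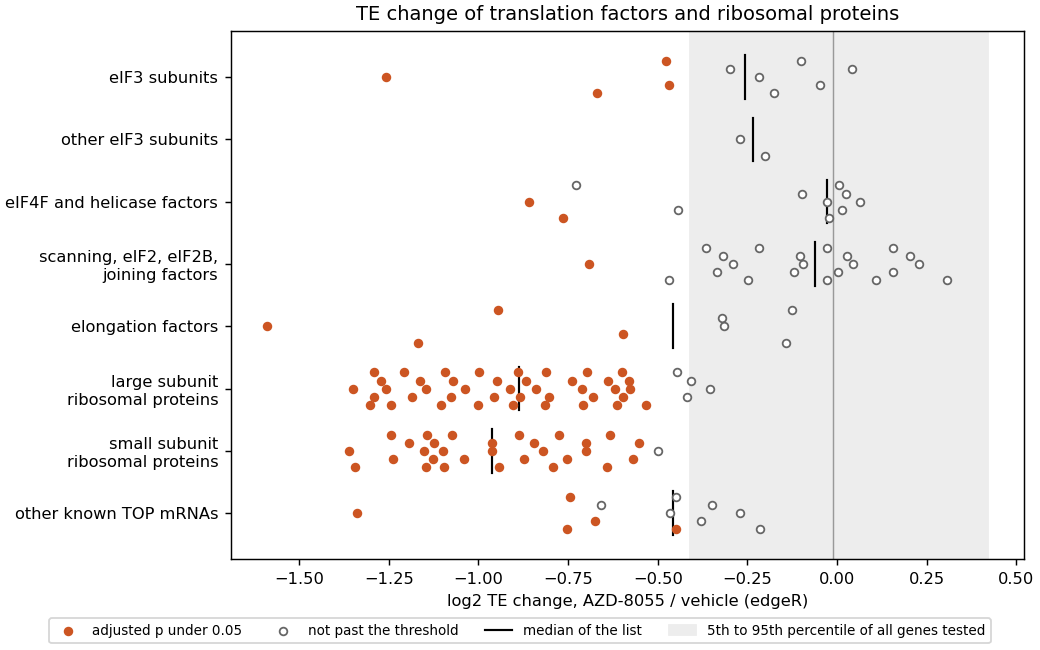
Log2 TE change with AZD-8055 (horizontal axis) is drawn for every tested gene of each list, with orange points past the adjusted threshold, open points not past it, a black bar at the list's median and grey shading from the 5th to the 95th percentile of all genes. Eif3f at −1.26 stands among the ribosomal proteins, whose medians are −0.89 and −0.96, apart from the median of −0.26 of the eIF3 subunits.

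By their profile over the 8 libraries of mice A to D, on the log2(CPM + 1) scale, the genes most like Eif3f included Rpl5, Rps16, Rps27a and Rps10, which encode ribosomal proteins and were called lower in TE at between −1.15 and −0.94. Pearson's r was 0.999 for each of them over 8 libraries, a description without a test, since these libraries share the large offset between footprints and RNA-Seq. The 5 genes most like the mean profile of the 10 subunits were Rps13, Rabggtb, Rpl10a, Rpl24 and Impdh2 (r from 0.980 to 0.988). Of these, the ribosomal protein genes Rps13, Rpl10a and Rpl24 were called lower in TE. Both sets of genes were picked on the same 8 libraries that gave the TE calls, so their calls are not separate support.

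In untreated mice, most of the subunit mRNAs were richer in the tagged polysomes of excitatory neurons than in the input. With CDS counts, 9 of the 10 subunits were higher in the IP and Eif3a was lower, in edgeR's quasi-likelihood test over the 4 libraries of mice E and F. Of 12211 genes, 36.5% were called higher and 39% lower. Against that background the 9 higher calls included 5 over 2-fold, and the median of the 10 log2 changes was 1.08, with −0.067 for all genes. Eif3g had the highest value. Its normalized counts were 799 (E) and 781 (F) in the input and 3104 and 3243 in the IP, a fitted log2 change of 1.87 ± 0.11 (SE; adjusted p = 2.96e-06). Eif3d (1.50), Eif3m (1.35), Eif3h (1.22) and Eif3f (1.18) followed, then Eif3e (0.97), Eif3l (0.82), Eif3b (0.62) and Eif3c (0.49). Every one of these genes was higher in the IP than in the input of both mice. The share of all genes with such a separation is not given here, so this is a description. Eif3i and Eif3k were also called higher, at 1.86 and 1.93. The rise was not particular to eIF3. Ribosomal protein genes were called higher in 46 of 46 for the large subunit and 31 of 31 for the small subunit. Their median log2 changes were 1.36 and 1.34. Of 8 elongation factors 7 were higher and 1 lower. Of 21 scanning, eIF2, eIF2B and joining factors 16 were higher and 2 lower. Of 12 eIF4F and helicase factors 5 were higher and 1 lower.

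Eif3a was lower in the IP of both mice. Its normalized counts were 2658 and 2669 in the input and 1215 and 1169 in the IP, and the fitted log2 change was −1.29 ± 0.11 (SE; edgeR adjusted p = 1.30e-05). The part of its exon reads that fell on CDS also differed, at 84.7% and 81.2% for the input libraries, compared with 63.0% and 52.0% for the IPs. Eif3b moved likewise, from 84.8% and 87.2% to 73.2% and 72.3%, whereas the other 8 subunits stayed between 91.8% and 105%. The median gene went from 66.1% and 64.8% (input) to 50.6% and 47.1% (IP). The part of this shift in the IP values was not tested. On exon counts, where 33.7% of 13254 genes were called higher and 35.7% lower, 8 subunits were called higher, 2 of them over 2-fold (Eif3g at 1.41 and Eif3d at 1.03), and Eif3a lower at −1.22. The median of the 10 log2 changes was 0.63 with exon counts, against 1.08 with CDS counts. Eif3c was no longer called (0.04 ± 0.10, edgeR adjusted p = 0.715).

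The IP values depend on the scaling. Under scaling by total counts the median of all genes lay at −0.51 in place of −0.067, Eif3c (0.05) and Eif3b (0.18) were no longer called, and the split of calls over all genes moved to 3022 higher and 6272 lower. Eif3a lay below the median of all genes and the other subunits above it. A change of scaling moves all genes by nearly the same amount, so it cannot test this order. Markers of the cell types that lack the tag moved with the IP. All 8 astrocyte, 7 oligodendrocyte, 5 precursor, 7 endothelial and 6 inhibitory neuron markers were called lower, as were 6 of 7 microglial markers, and the summed astrocyte markers went from between 2356 and 2440 CPM in the inputs to between 205 and 235 in the IPs. Of the 8 excitatory neuron markers 5 were called higher and 2 lower. Their part in the values of the eIF3 subunits was not tested.

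**Figure D4:**
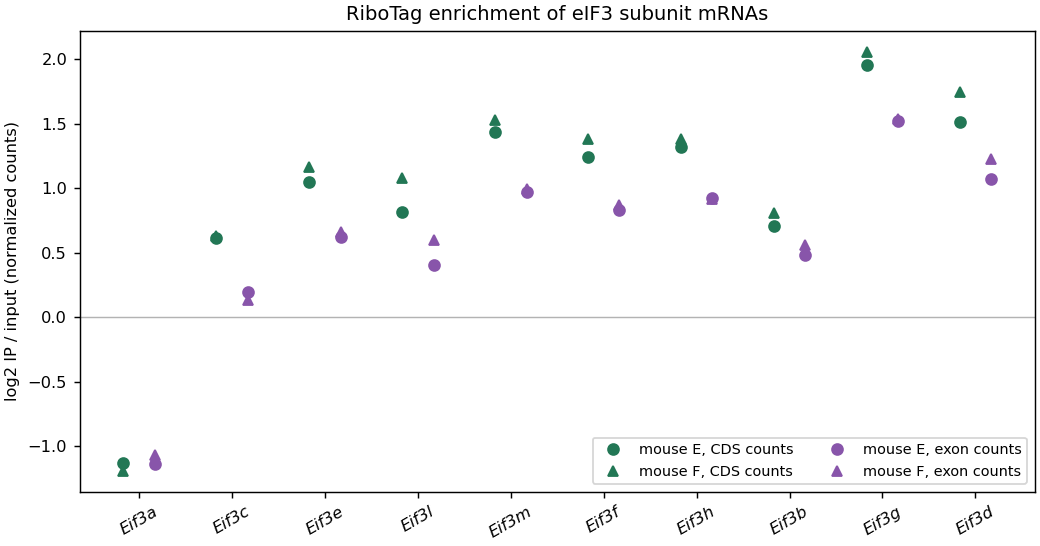
The log2 ratio of IP to input (vertical axis, counts divided by size factors) is drawn for each subunit in mouse E (circles) and mouse F (triangles), with CDS counts in green and exon counts in purple. Eif3a lies below −1 in both mice and both counts, Eif3c is the subunit nearest to 0 on exon counts, and Eif3g is the highest at about 2 on CDS counts.

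The IP values can be set beside the response to AZD-8055. Among the 4 subunits called lower in TE, the log2 IP values were 1.35 (Eif3m), 1.22 (Eif3h), 1.18 (Eif3f) and 0.97 (Eif3e), and they lay between those of Eif3g (1.87) and Eif3d (1.50) on the higher side and Eif3l, Eif3b, Eif3c and Eif3a on the lower side, none of which was called in TE. The mice of both experiments were different animals, and no test across them was made.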

How the data were processed

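The authors deposited whole-number counts of uniquely mapped reads per gene, without normalization, for CDS in 12 libraries and for exons in the 8 with RNA-Seq. Per the labels and the study's methods, reads were mapped to mm10 with TopHat2, after removal of rRNA with Bowtie2, and counted with HTSeq. Footprint reads were trimmed by 5 bases at the start and 20 at the end, clipped of poly(A) and kept from 15 bases on. The annotation release is not given in the sources used here. Multimapping reads were not counted, so genes with near-identical copies may be undercounted. RefSeq lists 4 pseudogenes of Eif3e, and 0 of them are in the count table.

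TE, footprint, RNA and IP changes were tested with edgeR 4.0.16 (TMM, quasi-likelihood F test, Benjamini-Hochberg over all genes tested) under R 4.3.3. Genes averaging under 37 counts over the libraries tested were left out. Standard errors and 95% intervals follow from the F statistic. RiboDiff, which the study used, was not installed. TE per mouse used DESeq2 1.42.0 size factors, and percentiles used genes with at least 75 counts of each kind over mice A and B. Tables and figures were made in Python 3.11.15 (pandas 2.3.3, numpy 2.4.6, matplotlib 3.10.9). The procedures were tested on simulated data without a mouse effect, where the planted changes were larger than any TE change of the subunits. That test does not show how well changes of the subunits' size are found. Symbols of 27 CDS entries were turned into dates (0.350% of counts) and these were kept as they stood. Coding lengths were not at hand, so levels were not compared between subunits.

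All 10 subunits are named. Examples from other lists are the genes with the largest or smallest TE change, and the like-profile genes are the 5 with the highest r. Not every gene so selected is reported here. The members and lists were chosen with earlier results of these data known. Mouse letters pair libraries of the same animal. Across genes the deviations of paired libraries correlated at 0.244 (A and B), 0.198 (C and D) and 0.477 (E and F). The alternatives were DESeq2, limma-voom (limma 3.58.1), other normalizations and count filters, exon counts, the mouse as a block and leaving out each mouse.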

Additional observations from a re-analysis of the deposited data

How the results depend on the processing

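The footprint libraries held between 3503873 and 9259938 counts, and each group held 2 mice, which limits every test. DESeq2, DESeq2 size factors in edgeR and total-count scaling each called 2 subunits lower in TE (Eif3e and Eif3f) in place of 4, and leaving out a mouse called 1. With limma-voom Eif3m was lost (adjusted p = 0.0512). Genes called lower in TE numbered 93, and between 55 (without mouse A) and 73 with a mouse left out. With the mouse as a replicate block the same 4 subunits were called among 116 genes, and the block changed no call of a subunit in the IP test (9 higher and 1 lower). With exon counts and the block, chosen after seeing the data, 8 were higher and 1 lower.

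Footprint calls, 105 genes and 3 subunits, were 204 genes without the count filter, between 65 and 236 genes with a mouse left out, and between 1 and 4 subunits. RNA calls, 18 genes in either direction, were 28 with DESeq2, 29 with total counts, 78 without the count filter, and between 15 and 40 with a mouse left out, and 0 subunits were called in any of these. The median vehicle log2 TE of the 10 subunits was 0.025 and was −0.073 with total counts. For the IP, leaving out a mouse leaves no replicate, so values only were computed, and Eif3l then ranged from 0.69 to 0.97.

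Only estimates near 0 changed sign. In TE these were Eif3b without the count filter (−0.0023) and Eif3c without mouse B (0.017, and −0.12 without mouse A). In footprints it was Eif3b, with total counts (0.0029), without mouse A (0.052) and without mouse D (0.010), and −0.052 without mouse B. In RNA, Eif3l turned to −0.0037 with total counts and to −0.030 and −0.035 without mice B and C (0.041 without A). Eif3f turned to 0.0018 without the filter, 0.031 and 0.030 without mice B and D (−0.036 without C), and 0.019 on exon counts. Eif3d turned to 0.00096 without the filter, 0.028 and 0.037 without mice A and C (−0.046 without D), and 0.020 on exon counts. Eif3c turned to 0.059 without mouse A (−0.087 without B) and 0.0039 on exon counts, and Eif3a to 0.0049 without mouse A (−0.023 without B). The causes were not tested.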

Other observations

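In the RNA-Seq libraries of mice A to D the median gene had between 62.7% and 64.1% of its exon reads on CDS, and all 10 subunits lay above that median. Eif3g had 100% in each of them, Eif3c between 98.7% and 99.0%, and Eif3a between 77.5% and 79.5%, the lowest of the 10 subunits. Eif3m had between 103% and 105%, so more reads were counted on its CDS than on its exons. Its values, the TE call included, are therefore uncertain, and by how much was not tested.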
